A study of Mus musculus and blank sample with 768 samples.

Results

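Bone morphogenetic protein (BMP) and endoglin signalling was described here through 10 genes measured in single mouse endothelial cells from tumours and lymph nodes. The genes were the ligands Bmp4 and Bmp6, the receptors Eng, Acvrl1 and Bmpr2, the inhibitory SMAD genes Smad6 and Smad7, and the target genes Id1, Id2 and Id3. They were chosen by name, with earlier results of these data known, as rows present in both deposited count tables. They make up 10 of the 51734 gene symbols there. By GENCODE vM21 on GRCm38, Eng lies at chr2:32646595-32682669, Acvrl1 at chr15:101128522-101145336, Bmpr2 at chr1:59763400-59879014, Id1 at chr2:152736251-152737410, Id2 at chr12:25093799-25097140 and Id3 at chr4:136143497-136145755. The 10 genes were followed across 5 endothelial sort gates, in 504 cells that passed the filter on reads.

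BMP ligands bind pairs of type I and type II serine/threonine kinase receptors, which phosphorylate SMAD1 and SMAD5, and these enter the nucleus with SMAD4. In endothelium the type I receptor ALK1, encoded by Acvrl1, works with the type II receptor encoded by Bmpr2 and with endoglin, a co-receptor encoded by Eng that helps it to bind its circulating ligands. Loss of Eng or Acvrl1 causes hereditary haemorrhagic telangiectasia, a disorder of malformed blood vessels, and ALK1 signalling is also known to act in lymphatic vessel development. Id1 and Id3 are among the most direct targets of this pathway, and Smad6 and Smad7 encode proteins that feed back to dampen it.

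The cells had been sorted singly into wells as CD45-, a leukocyte surface protein, and CD31+, an endothelial adhesion protein, and then by green fluorescent protein (GFP). The labels name GFP+ endothelial cells as cells of the Csf1r lineage, called CLEC there, and name GFPlow cells as potential cells of that lineage. CSF1, a growth factor of macrophages, acts through the Csf1r product. The title of the study asks whether lymphatic endothelial cells add to the blood vessels of tumours. The 5 gates, with the cells kept, were tumour GFP+ (84 on plate KM3 and 85 on plate KM4), tumour GFP- (84, plate KM2), lymph node GFPlow (15, 14 and 50 in pools B, C and D), lymph node GFP+ (43, 33 and 22 in pools A, B and C) and lymph node GFP- (40, 26 and 8 in pools A, B and C). The labels used here give no strain, age, tumour type, reporter allele or animal. Every gate therefore counted as 1 sample, cells were not replicates, and no difference between gates had a test or a replicate check. Intervals cover counting error only, since reads were not collapsed to molecules.

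Kept cells held a median of 805864 reads in tumour GFP+ cells and 827490 in tumour GFP- cells. In lymph node the median was 1238819 in GFPlow, 941920.5 in GFP+ and 609243.5 in GFP- cells. Levels are read counts per 1000000 summed reads of a gate (CPM). Of 8 pan-endothelial markers, 8 were found in at least 30% of cells in both tumour gates and in lymph node GFP- cells, and 6 in lymph node GFPlow and GFP+ cells. The lymphatic transcription factor Prox1 had reads in 0.592% of tumour GFP+ and 0% of tumour GFP- cells, and in 74.7%, 79.6% and 36.5% of lymph node GFPlow, GFP+ and GFP- cells. A list of 10 dissociation stress genes summed to 1360 CPM in tumour GFP+ and 1968 CPM in tumour GFP- cells. In lymph node the sum was 5099, 5888 and 11589.9 CPM in GFPlow, GFP+ and GFP- cells, so it moved with the gates, and its part in the results below was not tested. The summed 4 haematopoietic markers lay between 1.58 and 18.1 CPM in the 5 gates, against 3013 CPM in tumour macrophages. The summed 10 macrophage markers were 20.4 CPM in tumour GFP+ and 4.76 CPM in tumour GFP- cells. In lymph node they were 9.87, 72.03 and 6.17 CPM in GFPlow, GFP+ and GFP- cells, against 34651 CPM in tumour macrophages. Single genes carried the higher sums. Fcer1g gave 16.9 CPM in tumour GFP+ cells, from 8.28% of cells, and Lyz2 63.8 CPM in lymph node GFP+ cells, from 9.18%. Cd68 went the other way in tumour, with 1.84 CPM in GFP+ and 4.28 CPM in GFP- cells. Csf1r itself had reads in 13.9%, 39.8% and 4.05% of lymph node GFPlow, GFP+ and GFP- cells, at 5.40, 3.48 and 0.13 CPM. The part of these markers in the results was not tested. The summed 10 fibroblast and pericyte markers were 152.3, 282.6 and 26.5 CPM in lymph node GFPlow, GFP+ and GFP- cells, with 6, 5 and 5 of them at 0 reads. Rgs5 alone gave 150.6, 265.25 and 8.95 CPM of these sums. Dcn was highest in GFP- cells, at 17.4 CPM against 1.70 and 12.1 CPM in GFPlow and GFP+ cells. Both wells labelled as without a cell held 0 reads of the 10 genes. In pool D, 2 GFPlow wells carry the organism label of a blank but hold 681014 and 902999 reads. Without them the GFPlow level was 364.9 CPM for Eng, 7.48 CPM for Id1, 27.6 CPM for Id3 and 0 CPM for Bmp4, against 361.4, 9.97, 31.6 and 1.83 CPM with them.

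Promoter windows of the RefSeq table for GRCm38.p6, running from 250 bases before to 50 bases after the gene start, were found for 7 of the 10 genes (Eng, Bmpr2, Id2, Id3, Smad6, Bmp4 and Bmp6). The windows of 3 genes are shown because Eng and Id3 were far lower in lymph node GFP+ cells than in GFP- cells, and Id2 was not. They lie on chromosome 2 (chr2:32646345-32646644, plus strand) for Eng, on chromosome 4 (chr4:136143572-136143871, plus strand) for Id3 and on chromosome 12 (chr12:25096043-25096342, minus strand) for Id2. The table's RefSeq starts of Id3 and Id2 lie inside the GENCODE gene spans given above, so these windows do too. Capitals mark matches, on either strand, to GGCGCC, the core of a GC-rich element bound by BMP-activated SMAD proteins, and to CAGAC, the SMAD binding element, whose reverse complement is GTCTG.
Eng: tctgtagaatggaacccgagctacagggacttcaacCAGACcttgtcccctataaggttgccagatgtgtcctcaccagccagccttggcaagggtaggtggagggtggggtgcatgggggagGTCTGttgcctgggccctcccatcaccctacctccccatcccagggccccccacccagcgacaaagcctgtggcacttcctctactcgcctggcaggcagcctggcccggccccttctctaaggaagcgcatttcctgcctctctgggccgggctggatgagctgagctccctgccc
Id3: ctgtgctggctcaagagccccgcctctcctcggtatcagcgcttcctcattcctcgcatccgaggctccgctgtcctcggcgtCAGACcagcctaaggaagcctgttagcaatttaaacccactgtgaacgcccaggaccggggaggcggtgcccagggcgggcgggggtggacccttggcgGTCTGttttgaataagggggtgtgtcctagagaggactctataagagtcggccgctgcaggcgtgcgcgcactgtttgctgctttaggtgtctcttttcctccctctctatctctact
Id2: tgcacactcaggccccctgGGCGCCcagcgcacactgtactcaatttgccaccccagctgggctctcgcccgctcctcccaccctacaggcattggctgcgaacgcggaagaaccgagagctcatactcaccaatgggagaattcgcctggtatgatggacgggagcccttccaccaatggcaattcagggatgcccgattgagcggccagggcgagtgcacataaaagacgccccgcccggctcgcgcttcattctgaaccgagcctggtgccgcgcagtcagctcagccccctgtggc
The Eng and Id3 windows each held 2 copies of CAGAC and 0 of GGCGCC, and the Id2 window held 1 copy of GGCGCC and 0 of CAGAC. The Bmpr2 window held 1 copy of GGCGCC and the Bmp6 window 1 of CAGAC. The Smad6 and Bmp4 windows held neither. Of all 32851 windows of this length, 11.9% held GGCGCC and 49.6% held CAGAC. These matches describe letters in a window and not binding.

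The lymph node gates differed widely in these genes. Between lymph node GFP+ and GFP- cells, 8 of the 10 genes were measured, meaning that one of the gates reached 1 CPM, with reads in 5% of its cells or more. In GFP+ cells 7 of these 8 were at least 2-fold lower (Eng, Acvrl1, Bmpr2, Id1, Id3, Smad6 and Bmp4), where 19.2% of all 11140 measured genes were lower. Id2 alone of the 8 was at least 2-fold higher, where 20.1% of all measured genes were higher. The median log2 ratio of the 8 genes was -3.43, beside 0.04 over all measured genes. In lymph node GFPlow over GFP- cells, taken within pools B and C, 6 of 9 measured genes were at least 2-fold lower (Eng, Acvrl1, Id1, Id3, Smad6 and Bmp4) and 0 were higher, with 30.5% lower and 25.3% higher among all 10613 measured genes. The median was -3.09 beside -0.05 over all. Both comparisons use the same GFP- cells of pools B and C.

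The tumour gates were close to each other in the same genes, as they were in most measured genes. Of the 9 genes measured there, 0 were at least 2-fold higher and 0 at least 2-fold lower in GFP+ over GFP- cells, where 6.95% of all 10971 measured genes were higher and 8.25% lower. Their median log2 ratio was 0.07, beside -0.12 over all measured genes. Scaling by trimmed means or by medians of ratios shifted the median of all genes by 0.13 and 0.12, so tumour ratios read relative to all genes are that much higher. Plates KM3 and KM4 held GFP+ cells only and plate KM2 held GFP- cells only, so plate and gate cannot be told apart. Lymph node GFPlow over GFP+ cells, in pools B and C, had 5 measured genes, of which 2 were higher (Bmpr2 and Bmp6) and 0 lower, with 20.5% higher and 25.4% lower among all 10470 measured genes.

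**Figure D1:**
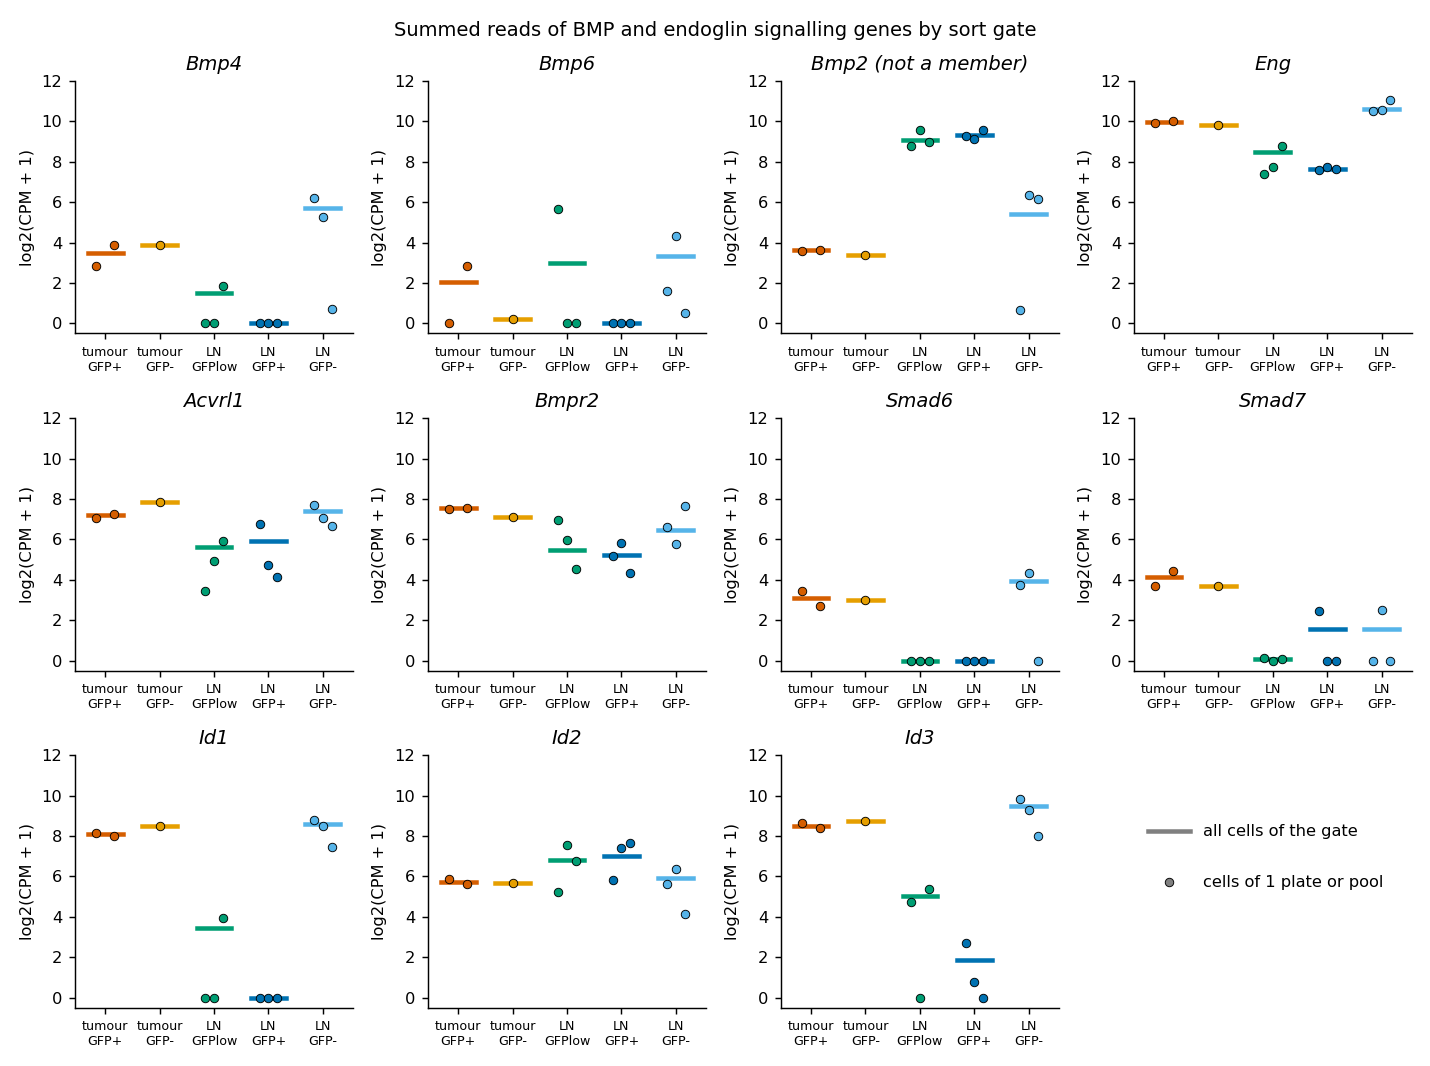
Summed reads of the 10 genes and of Bmp2, as log2(CPM + 1), in the 5 endothelial gates (LN, lymph node). Bars show all cells of a gate and points the cells of 1 plate or pool. Id1 and Bmp4 are at 0 and Id3 at 5.50 CPM or less in every pool of lymph node GFP+ cells. Bmp2 lies above 558 CPM in each of these pools.

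Among the ligands, Bmp4 and Bmp6 were found in few cells of any gate. Bmp4, a secreted BMP known for roles in mesoderm and vessel development, had 6.06 and 13.97 CPM on the tumour GFP+ plates KM3 and KM4, and 13.49 CPM in tumour GFP- cells. Lymph node GFPlow cells had 0, 0 and 2.62 CPM in pools B, C and D, GFP+ cells 0 CPM in pools A, B and C, and GFP- cells 73.9, 38.2 and 0.65 CPM. The GFPlow reads of pool D came from a well labelled as a blank. Few cells carried these reads. In GFP- pool A 1 cell held 73.1% of them and in pool B 1 cell held 99.5%, and without those cells the pools had 20.7 and 0.21 CPM. Bmp4 reads came from 12.2% of lymph node GFP- cells (95% interval 5.71 to 21.8%), and 1 cell gave 49.7% of the reads. With 0 of 98 GFP+ cells, a share of up to 3.06% is allowed. Taking 3 reads over the gate as the floor, the summed level was at least 1629-fold lower than in GFP- cells. That limit covers read counting only and does not hold if a few GFP+ cells with Bmp4 were missed. Bmp6, a related ligand that binds other type I receptors than ALK1, had reads in 1.18% of tumour GFP+, 2.38% of tumour GFP-, 2.53% of lymph node GFPlow, 0% of lymph node GFP+ and 4.05% of lymph node GFP- cells. Its 2-fold call in GFPlow over GFP+ cells (23.05 against 0 CPM in pools B and C) rested on 1 cell with 99.8% of the GFPlow reads, and without that cell the log2 ratio was 0.05.

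Bmp2, a close relative of Bmp4 that is not one of the 10 genes, had the highest level per kilobase among the ligands of the pathway list in lymph node GFPlow and GFP+ cells, at 151.4 and 181.4 CPM per kilobase. In the other gates another gene of that list was higher. Inhbb, an activin subunit gene, had 50.04 and 28.2 CPM per kilobase in tumour GFP+ and GFP- cells, where Bmp2 had 3.15 and 2.61. Tgfb3, a TGF-beta ligand gene, had 17.1 CPM per kilobase in lymph node GFP- cells, where Bmp2 had 11.9. In CPM, Bmp2 had 441, 773 and 504 CPM in pools B, C and D of lymph node GFPlow cells, 619, 559 and 767 CPM in pools A, B and C of GFP+ cells, and 0.58, 82.03 and 70.3 CPM in the same pools of GFP- cells. Every pool of GFPlow and GFP+ cells lay above every pool of GFP- cells, where pool C had 0.23 CPM without 1 cell. Reads were present in 88.6% of GFPlow, 92.9% of GFP+ and 12.2% of GFP- cells, and in 82.1%, 89.5% and 11.3% after each cell had been thinned to 100000 reads. The log2 ratio of GFP+ over GFP- cells was 3.90, and 8.62, 2.75 and 3.43 within pools A, B and C. Tumour GFP+ and GFP- cells had 11.2 and 9.28 CPM, from 8.28% and 4.76% of cells. Levels set across tissues come from different tables and plates, so tissue and table cannot be told apart.

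Of the receptors, Eng had the highest level per kilobase of exon in every gate. In tumour GFP+ cells the levels were 246.6 CPM per kilobase for Eng, 33.8 for Acvrl1 and 10.3 for Bmpr2. Eng had 954 and 1039.8 CPM on tumour GFP+ plates KM3 and KM4 and 893 CPM in tumour GFP- cells, a log2 ratio of 0.16. Lymph node GFPlow cells had 167.6, 211.8 and 435 CPM in pools B, C and D, GFP+ cells 193.7, 216.5 and 199.3 CPM in pools A, B and C, and GFP- cells 1461, 1521 and 2120.4 CPM. The GFP- pools were all above the tumour plates, and the GFPlow and GFP+ pools were all below them. In GFP- pool C 1 of 8 cells held 65.6% of the reads, and without it this pool had 1269 CPM. The ratio of GFP+ over GFP- cells was -2.94, and -2.91, -2.81 and -3.40 within pools A, B and C, or -2.66 in pool C without that cell. That of GFPlow over GFP- cells was -3.17 and -3.32 in pools B and C. Eng was not absent from the low gates: 64.6% of GFPlow and 67.3% of GFP+ cells had a read, against 91.9% of GFP- cells, with a median per cell of 17.6, 17.8 and 1148 CPM. Tumour macrophages, sorted as CD45+ CD31- cells, had a read in 28.4% of cells at 41.6 CPM. In bulk sums such as these, fewer cells with a transcript and less of it in each cell cannot be told apart, which is why shares and medians stand beside the levels.

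Acvrl1, which encodes the ALK1 receptor, had 133.6 and 154.2 CPM on tumour GFP+ plates KM3 and KM4 and 227.7 CPM in tumour GFP- cells. This was the lowest ratio among the 9 measured genes in tumour, at -0.65, and it stayed within 2-fold, but its mean over the CPM of single cells gave -1.01. Reads were found in 59.2% of GFP+ cells (95% interval 51.4 to 66.7%) and 85.7% of GFP- cells (76.4 to 92.4%), and in 53.3% and 82.9% after thinning. The shares were 57.1% and 61.2% on KM3 and KM4. In lymph node it had 10.01, 29.9 and 59.7 CPM in GFPlow pools B, C and D, 108.3, 25.6 and 16.8 CPM in GFP+ pools A, B and C, and 207.6, 134.2 and 101.1 CPM in GFP- pools A, B and C. Within each pool the GFPlow and GFP+ values were below the GFP- value, though GFP+ pool A lay above GFP- pool C. The ratio of GFP+ over GFP- cells was -1.46, and -0.93, -2.35 and -2.52 within the pools. Of the GFPlow reads, 50.7% came from 1 cell, and without the cell with the most reads GFPlow pools B and C had 0 and 0.07 CPM. Tumour macrophages had 67.7 CPM, with reads in 34.6% of cells.

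Bmpr2, the type II receptor, had 183.2 and 186.4 CPM on tumour GFP+ plates KM3 and KM4 and 136.8 CPM in tumour GFP- cells, a ratio of 0.43. Lymph node GFPlow cells had 124.6, 61.4 and 21.9 CPM in pools B, C and D, GFP+ cells 35.1, 55.9 and 19.1 CPM in pools A, B and C, and GFP- cells 96.1, 53.2 and 200.96 CPM. These pools overlapped between the gates. The ratio of GFP+ over GFP- cells was -1.26 over all pools, but -1.43, 0.07 and -3.33 within pools A, B and C, and -0.80 without pool C, where only 8 GFP- cells were kept. The pool B value was -0.45 without the GFP+ cell with the most reads, and 0.42 without the top cell of both gates. In GFPlow over GFP- cells the ratio was 1.21 in pool B and -1.70 in pool C. In pool B 1 GFPlow cell held 44.8% of the GFPlow reads. Without that cell the pool B ratio was 0.40, and without the top cell of both gates it was 1.27. Over GFP+ cells the GFPlow ratio was 1.27, and 1.14 and 1.63 within pools B and C. Without the GFPlow cell with the most reads these pool ratios were 0.33 and 0.999. Without the top cell of both gates they were 0.85 and 2.31.

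**Figure D2:**
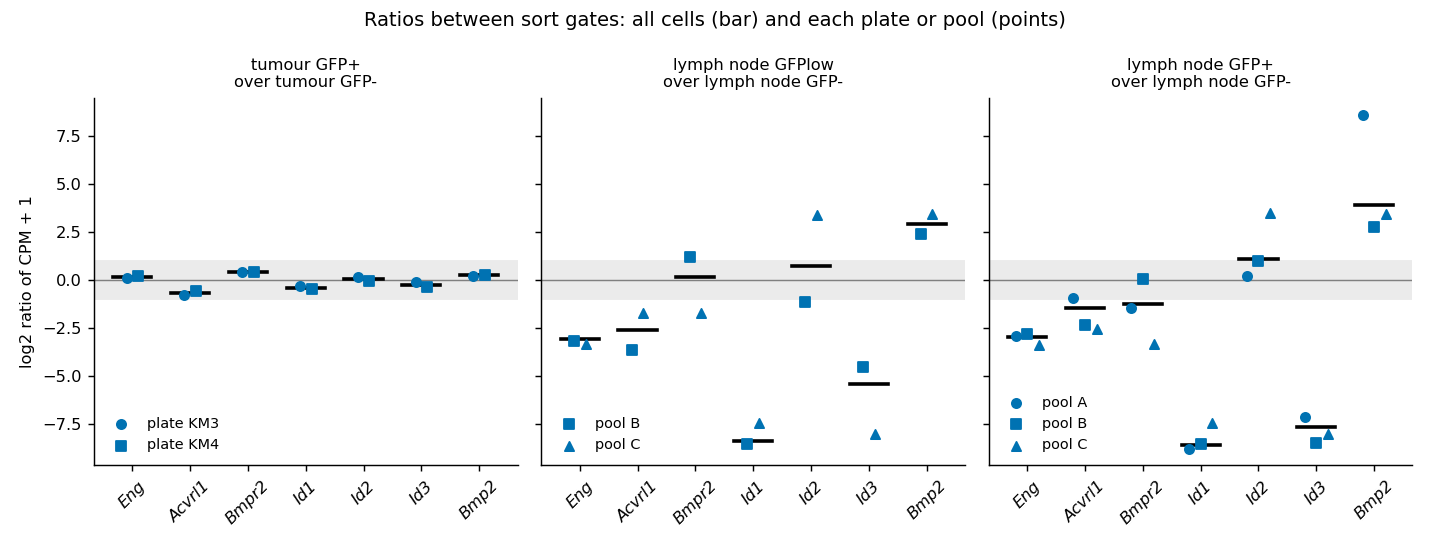
Log2 ratios of CPM + 1 between gates for 6 of the 10 genes and Bmp2, over all cells (black bars) and within each plate or pool (points). The grey band spans 2-fold. Eng, Id1 and Id3 lie below the band in every lymph node pool, tumour ratios lie inside it, and Bmpr2 and Id2 differ between pools.

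The inhibitory SMAD genes were low throughout. Smad6, whose product blocks BMP receptors in particular, had 9.83 and 5.49 CPM on tumour GFP+ plates KM3 and KM4 and 6.98 CPM in tumour GFP- cells. In lymph node it had 0 reads in the 79 GFPlow and 98 GFP+ cells and 12.5, 19.01 and 0 CPM in pools A, B and C of GFP- cells. Only 6.76% of GFP- cells had a read, and 1 of them gave 50.9% of the reads. A count of 0 allows shares of up to 3.797% in GFPlow and 3.06% in GFP+ cells. The call of at least 447-fold lower in GFP+ cells thus rests on few cells, and its limit covers read counting only. Smad7, which also blocks TGF-beta receptors, had 11.9 and 20.8 CPM on plates KM3 and KM4 and 11.7 CPM in tumour GFP- cells. Its share was 15.4% of tumour GFP+ and 16.7% of tumour GFP- cells. It was below the measuring limit in lymph node, with reads in 2.53%, 2.04% and 1.35% of GFPlow, GFP+ and GFP- cells.

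The Id genes encode helix-loop-helix proteins that lack a DNA-binding region and hold E proteins in inactive pairs. Id1 had 287.2 and 254.2 CPM on tumour GFP+ plates KM3 and KM4 and 355.05 CPM in tumour GFP- cells, a ratio of -0.39. In lymph node it had 0, 0 and 14.3 CPM in GFPlow pools B, C and D, 0 CPM in GFP+ pools A, B and C, and 440.3, 366.2 and 175.5 CPM in GFP- pools A, B and C. The GFPlow and GFP+ pools were below the GFP- pools, but the reads of GFP- pool C came from 1 of its 8 cells, and without that cell this pool too had 0 CPM. Without the cell with the most reads, GFP- pools A and B had 245.3 and 231.3 CPM. The GFPlow reads came from 2 of 79 cells, the GFP- reads from 40.5% of cells, and 0 of 98 GFP+ cells allows a share of up to 3.06%. Taking 3 reads as the floor, the summed level was at least 12130.2-fold lower in GFP+ than in GFP- cells. In GFPlow cells within pools B and C it was at least 3165-fold lower. These limits cover read counting only. GFP- cells with a read had a median of 643 CPM, so the limits do not hold if a few cells with Id1 were missed. One GFP- cell gave 25.4% of its gate's reads.

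Id3 followed the same order of gates. It had 402 and 333.2 CPM on tumour GFP+ plates KM3 and KM4 and 433 CPM in tumour GFP- cells, a ratio of -0.24. Lymph node GFPlow cells had 25.9, 0 and 39.96 CPM in pools B, C and D, GFP+ cells 5.50, 0.73 and 0 CPM in pools A, B and C, and GFP- cells 900.4, 630.3 and 254.9 CPM. The GFPlow and GFP+ pools were again all below the GFP- pools. The ratio was -7.64 for GFP+ over GFP- cells and, within pools B and C, -5.42 for GFPlow over GFP- cells. The GFPlow reads of pool B came from 1 of 15 cells, and without the cell with the most reads in each gate the ratio of GFPlow over GFP- cells was -8.84. With blood-like cells left out it was -1.03. Reads were found in 12.7% of GFPlow, 3.06% of GFP+ and 59.5% of GFP- cells. In tumour the shares were 63.9% of GFP+ cells (95% interval 56.2 to 71.1%) and 82.1% of GFP- cells (72.3 to 89.6%), and thinning left 62.3% and 82.9%.

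Id2 took another order, with its highest endothelial levels where Id1 and Id3 were lowest. Lymph node GFPlow cells had 36.8, 186.8 and 109.02 CPM in pools B, C and D, GFP+ cells 56.5, 168.98 and 202.1 CPM in pools A, B and C, and GFP- cells 48.5, 83.1 and 16.8 CPM. The pools overlapped. The ratio of GFP+ over GFP- cells was 1.08, and 0.22, 1.02 and 3.51 within pools A, B and C. In pool C 1 GFP+ cell held 79.4% of the GFP+ reads and 1 GFP- cell all of the GFP- reads. Without that GFP+ cell the GFP+ level of pool C was 46.2 CPM and the ratio 1.41. In GFPlow over GFP- cells it was -1.15 in pool B and 3.40 in pool C. The GFP+ ratio was inside 2-fold without the cell with the most reads in each gate (0.90), which held 35.7% of the GFP+ reads, and without pool C (0.61). Shares of cells differed little, at 37.97% of GFPlow, 33.7% of GFP+ and 28.4% of GFP- cells, with overlapping intervals. Tumour GFP+ and GFP- cells had 52.7 and 50.1 CPM, from 27.2% and 27.4% of cells. All these were below the 442 CPM of tumour macrophages, where 82.7% of cells had a read.

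**Figure D3:**
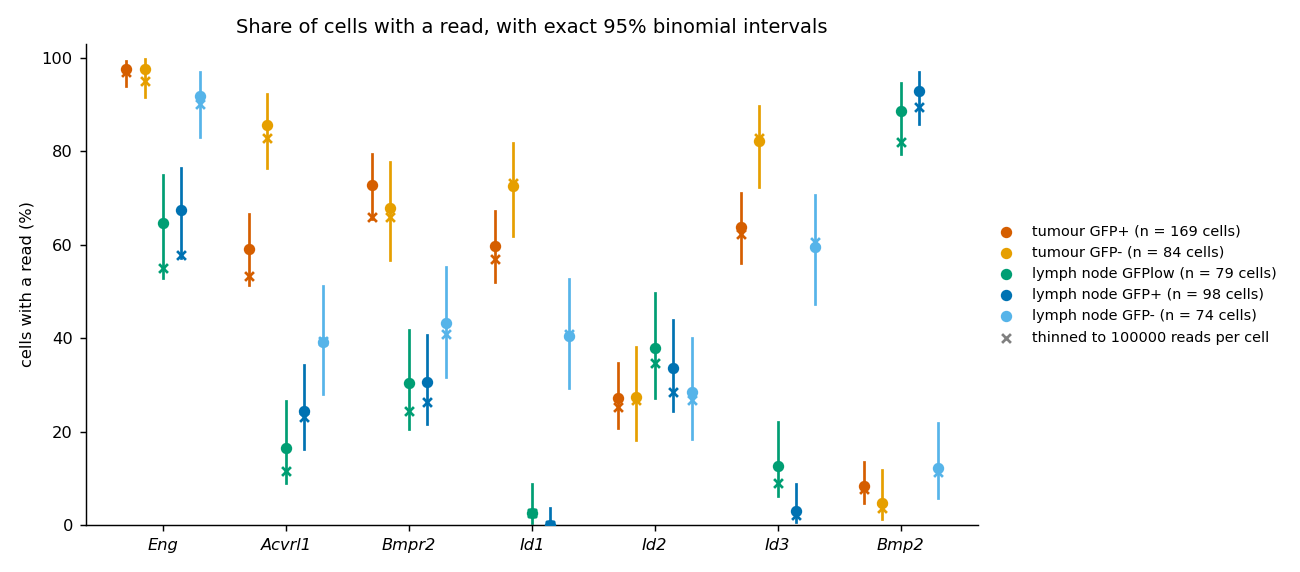
Percentage of cells with at least 1 read of 6 of the 10 genes and Bmp2 in the 5 gates. Points show all reads with exact 95% binomial intervals, and crosses show cells thinned to 100000 reads. Id1 and Id3 are found in 0% and 3.06% of lymph node GFP+ cells, where Bmp2 is found in 92.9%.

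In single tumour cells Id1 and Id3 often occurred together. Both were found, with or without Id2, in 35 of 84 and 46 of 85 GFP+ cells on plates KM3 and KM4, and in 54 of 84 GFP- cells. Id1 was found in 75% of GFP+ cells with Id3 reads and in 32.8% of those without, and in 78.3% and 46.7% of GFP- cells. Pearson's r of log2(CPM + 1) between Id1 and Id3 was 0.46 over all GFP+ cells, 0.34 and 0.58 on plates KM3 and KM4, and 0.33 over the 84 GFP- cells. These cells share plates and differ in depth, and Id1 itself had an r of 0.31 and 0.25 with the log of a cell's depth in the GFP+ and GFP- gates. Eng was found in nearly all tumour cells. In GFP+ and GFP- cells its r was 0.10 and 0.17 with Acvrl1, 0.16 and 0.36 with Id1, and 0.26 and 0.21 with Id3. None of Id1, Id2 and Id3 was found in 20.7% of tumour GFP+ cells (95% interval 14.9 to 27.6%) and 7.14% of tumour GFP- cells (2.67 to 14.9%). On the GFP+ plates KM3 and KM4 this share was 20.2% and 21.2%. Gate and plate cannot be told apart here either.

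The lymph node gates hold different kinds of cells. Cells of all lymph node gates were clustered without the 10 genes, the pathway genes and the marker genes, which gave 6 clusters. By markers, 98 cells were sinus floor-type lymphatic-like, 25 were sinus ceiling-type lymphatic-like and 47 were blood-like. Another 81 cells stayed unnamed, since 4 of the 10 leading genes of each of their clusters were predicted, ribosomal or mitochondrial by name. In at least 30% of cells these clusters held 3 sinus floor, 6 or 5 lymphatic, 1 blood and 0 ceiling markers. The floor-type clusters held 3, 6, 1 and 0. The names were given by a rule set with the data in view, and the blood-like cluster was led by Ccl21a, Ly6c1, Sparcl1 and Igfbp3, the first of them a chemokine gene that lymphatic cells express too. Of the GFPlow cells, 25 were floor-type, 4 ceiling-type, 2 blood-like and 48 unnamed. The GFP+ cells held 71 floor-type and 27 unnamed cells and 0 of the other classes. The GFP- cells held 2 floor-type, 21 ceiling-type, 45 blood-like and 6 unnamed cells. Prox1 had 382.95, 504 and 0.10 CPM in the floor-type, ceiling-type and blood-like classes. Flt1, a VEGF receptor of blood endothelium, had 14.3, 0.18 and 1038 CPM. The classes thus differ with the gates, and the GFP- gate is a mixture of ceiling-type and blood-like cells.

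The 10 genes differed between these classes as follows, with the floor-type value first, the ceiling-type value next and the blood-like value last. Bmp4 had 0, 106.9 and 6.83 CPM, from 0%, 28% and 4.26% of cells, highest in ceiling-type cells. One cell gave 50.4% of the ceiling-type reads, and without it the class had 55.3 CPM. Bmp2 ran the other way, with 637, 42.2 and 0.51 CPM from 93.9%, 12% and 6.38% of cells, and 1 cell held 88.7% of the ceiling-type reads. Eng had 260, 833 and 2037 CPM, from 77.6%, 84% and 97.9% of cells. Within pools A and B, Eng had 167.7 and 218.1 CPM in floor-type, 1026 and 1044 CPM in ceiling-type and 1813 and 2419 CPM in blood-like cells, so its order was the same in both. Acvrl1 had 47.3, 61.8 and 289.4 CPM, and Bmpr2 26.2, 62.5 and 99.03 CPM.

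Id1 had 0, 11.03 and 644 CPM, from 0 of 98 floor-type cells, 1 of 25 ceiling-type cells and 31 of 47 blood-like cells. The ceiling-type cell was a well labelled as a blank, and without it this class had 0 reads of Id1. Id3 had 0.02, 385 and 912 CPM, from 2.04%, 40% and 78.7% of cells. The intermediate level of Id3 in ceiling-type cells rested on few of them, since 1 cell held 68.1% of the reads, and it was 861 CPM in pool A and 38.4 CPM in pool B. Id2 had 145.2, 43.2 and 84.4 CPM, from 39.8%, 12% and 40.4% of cells. Smad6 had reads in 0, 0 and 5 cells of the classes. Smad7 had 0, 0.22 and 3.20 CPM, and Bmp6 had 0, 29.3 and 14.7 CPM, of which 1 cell held 99.7% of the ceiling-type reads. The unnamed cells had 265.6 CPM of Eng, 39.6 CPM of Acvrl1, 59.2 CPM of Bmpr2, 0 CPM of Id1, 82.99 CPM of Id2, 28.1 CPM of Id3 and 573 CPM of Bmp2. Among floor-type cells 38 of 98 had reads of Id2 alone, while in the blood-like class 27 of 47 had reads of both Id1 and Id3. The r between Id1 and Id3 over the 47 blood-like cells was 0.37, near the values of the tumour gates. An alternative added after the data had been seen left the blood-like cells out of both gates. It took out 45 of 74 GFP- and 0 of 98 GFP+ cells. Then 3 genes rather than 7 were lower in GFP+ over GFP- cells. These were Eng (-2.12), Id3 (-6.67) and Bmp4 (-6.68), and Id1 and Smad6 had 0 reads in both gates. The share of all genes lower was not computed without the blood-like cells, so the 3 genes have no such share beside them.

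**Figure D4:**
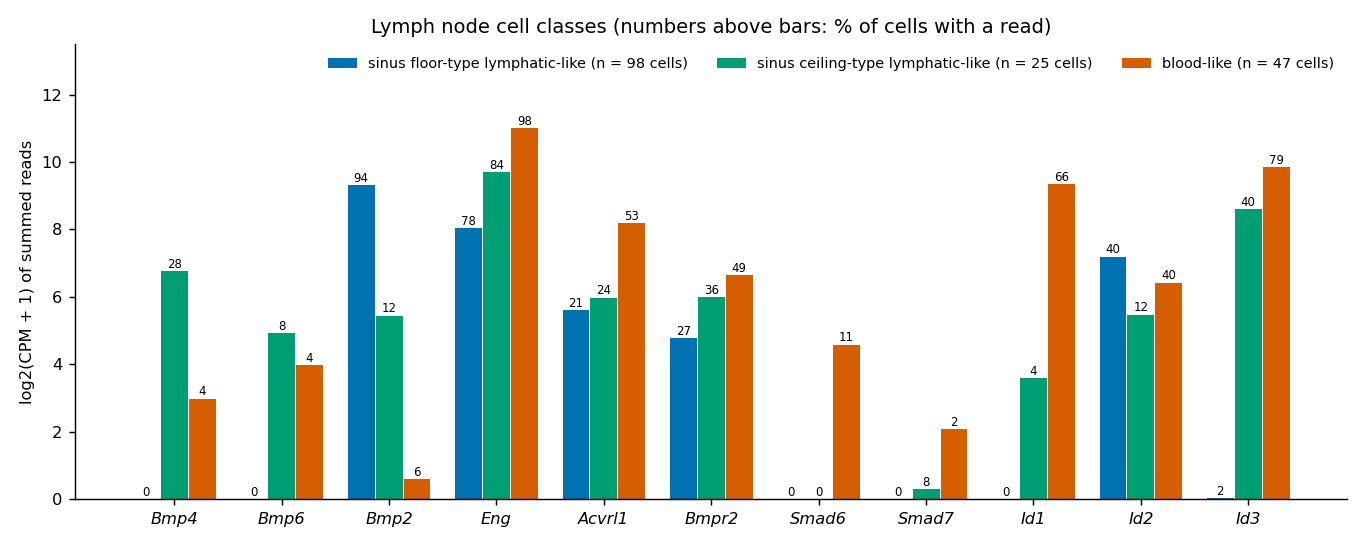
Summed reads of the 10 genes and Bmp2, as log2(CPM + 1), in 3 classes of lymph node cells, with the percentage of cells with a read above each bar. Eng, Acvrl1, Bmpr2, Id1 and Id3 are highest in blood-like cells, Bmp4 in ceiling-type cells and Bmp2 and Id2 in floor-type cells.

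**Figure D5:**
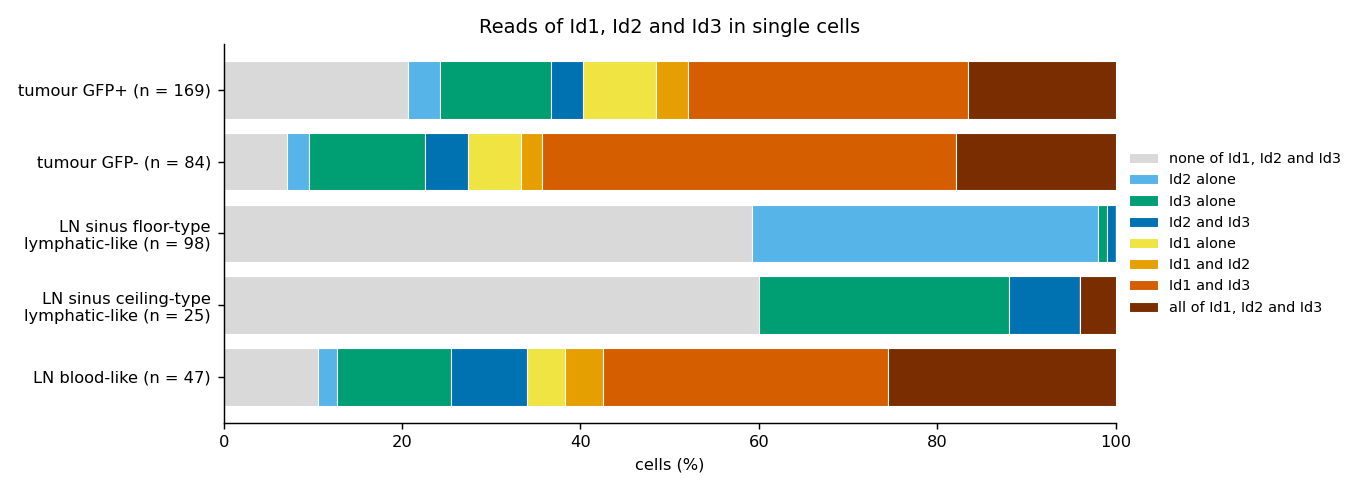
Percentage of cells with reads of each combination of Id1, Id2 and Id3 in both tumour gates and 3 classes of lymph node cells. Cells with both Id1 and Id3 make up 35 of 84 and 46 of 85 tumour GFP+ cells of plates KM3 and KM4, 54 of 84 tumour GFP- and 27 of 47 blood-like cells, and 0 of 98 floor-type cells.

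The rest of the pathway was covered by 52 genes in lists of other ligands, receptors, SMAD genes, modulators, targets and E proteins. In tumour GFP+ over GFP- cells 33 were measured. At least 2-fold higher were 4 and lower 3, beside 6.95% and 8.25% of all measured genes. Those that also reached 20 CPM, with reads in 25% of cells or more of the higher gate, were Smurf1, a ubiquitin ligase that removes SMAD1 and BMP receptors (40.1 and 17.1 CPM), Smad2, a SMAD of the TGF-beta branch (28.6 and 59.7 CPM), and Gata2, an endothelial transcription factor (54.3 and 133.7 CPM). Smad1 had 196.7 CPM in tumour GFP+ and 276.2 CPM in tumour GFP- cells, and the E protein gene Tcf4 had 633 and 527 CPM.

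In lymph node GFP+ over GFP- cells 32 of the 52 were measured. Higher were 5 and lower 9, beside 20.1% and 19.2% of all measured genes. Besides Bmp2, those higher by the same limits were Smad4, the shared partner SMAD (177.6 and 31.4 CPM, ratio 2.46), Tgfbr3, a co-receptor also called betaglycan (268.4 and 103.3 CPM, ratio 1.37), and Tgfbr1, the type I TGF-beta receptor (103.2 and 39.7 CPM, ratio 1.36). Those lower were Crim1, a membrane protein that binds BMPs (ratio -2.97), Tgfbr2, the type II TGF-beta receptor (118.1 and 842 CPM, ratio -2.82), Tcf4 (148.3 and 485 CPM, ratio -1.70) and Bambi, a decoy receptor (ratio -1.21). Smad1, which encodes the SMAD1 transducer, had 348.7 CPM in GFP+ and 188.6 CPM in GFP- cells. It was named after its values had been seen, and its link to the Id1 and Id3 levels was not tested. By class, Smad1 had 305.7, 183.1 and 176.99 CPM in floor-type, ceiling-type and blood-like cells. Tgfbr2 had 134.9, 1164 and 717 CPM, Smad4 had 151.5, 7.98 and 20.0 CPM, and Acvr1, another BMP type I receptor, had 60.8, 74.1 and 0.07 CPM.

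In lymph node GFPlow over GFP- cells 31 of the 52 were measured. Higher were 3 and lower 12, beside 25.3% and 30.5% of all measured genes. Bmp2 was higher (618 and 79.9 CPM, ratio 2.94), and the E protein gene Tcf12 (-3.47), Tcf4 (-1.82), Tgfbr2 (-1.79) and Bambi (-1.50) were lower by the same limits. GFPlow over GFP+ cells had 4 higher and 7 lower of 31, beside 20.5% and 25.4% of all measured genes. There Tgfbr2 was higher (277.6 and 131.5 CPM, ratio 1.07), and Tgfbr1 (-1.56) and Smad4 (-1.19) were lower. The median of all genes moved by -0.12 with trimmed-mean scaling in this comparison.

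The genes most alike in pattern were sought by Pearson's r of log2(CPM + 1) over 12 units of gate by plate or pool, among 8643 genes. These units share pools and tables and are not independent. For Eng they were Rnf144a (0.99), Tnfrsf26 (0.99) and Plscr2 (0.98), and for Acvrl1 they were Cav2 (0.94), Adgrl4 (0.93) and Arhgdib (0.93). For Bmpr2 they were Ip6k2 (0.91), Cdh5 (0.90) and Ankrd33b (0.89). For Id1 they were Sorbs2 (1.00), Ly6a (0.99) and Lrrc32 (0.99), and for Id3 they were Ackr3 (0.99), Esam (0.97) and Tinagl1 (0.96). For Id2 they were Ash1l (0.92), Rdm1 (0.91) and Ero1lb (0.90), and for Bmp4 they were Lama3 (0.97), Tril (0.97) and Eepd1 (0.96). Over the same units Id1 had an r of 0.96 with Eng, 0.94 with Id3, -0.54 with Id2 and -0.88 with Bmp2.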

How the data were processed

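Reads of single sorted cells had been amplified by a modified SMART-seq2 protocol with 20 cycles and no molecular identifiers, per the labels' protocols. The deposited tables hold whole-number read counts per gene, which the authors made on the mm10 build. Tools listed, per the submitters' processing notes, are STAR 2.4.1b, Subread 1.4.6-p2 and FastQC 0.11.4. Whether counting used strand is not given in the sources used here. All 768 columns matched a title, and 0 were left over. Rows sharing a symbol (92) were summed.

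Cells with at least 50000 reads, at least 1000 genes and at most 25% mitochondrial reads were kept (592 of 766). No doublet caller was run, since cells were sorted singly. Counts of a gate were summed and scaled to CPM with exact Poisson 95% intervals, and shares carry exact Clopper-Pearson 95% intervals. Ratios are log2(CPM + 1), which understates changes of low genes. Call means at least 2-fold. For a count of 0, limits use 3 reads or 3 cells over the gate. Fold limits from 3 reads cover read counting and not cells that were missed. Thinning used 100000 reads. Exon lengths are unions of GENCODE vM21 exons. Clustering used 2000 variable genes, 20 components, 15 neighbours and Leiden resolution 1. A class needed 3 markers in at least 30% of a cluster's cells, and a cluster with 3 or more predicted, ribosomal or mitochondrial genes among its top 10 stayed unnamed. Scaling alternatives used edgeR 4.0.16 and DESeq2 1.42.0, and other steps used Python 3.11.15, pandas 2.3.3 and SciPy 1.17.1. The ratio step was checked on simulated counts.

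The 10 genes, the lists and the rules were chosen with earlier results of these data known. All 10 genes were named. Of the pathway lists, up to 4 genes with the highest and 4 with the lowest ratio past 2-fold were named per comparison if they reached 20 CPM, with reads in 25% of cells or more of the higher gate. Other pathway genes were named after their values had been seen. Alternatives were TMM and median-of-ratios scaling, the mean of per-cell CPM, thinning, pseudocounts of 0.1 and 5 CPM, a stricter cell filter, no filter on low values, and single cells, plates, pools or blood-like cells left out.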

Additional observations from a re-analysis of the deposited data

Results flagged for a closer look

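The ratio of Eng between the GFP gates differed between the tissues. The log2 ratio of GFP+ over GFP- cells was -2.94 in lymph node and 0.16 in tumour, a difference of -3.10. Every lymph node pool was below 0 and both tumour plates were above 0, at 0.10 and 0.22. Both tumour values use the same GFP- cells of plate KM2, so they are not independent. Plate and gate cannot be told apart there. The difference was not tested, since no label names an animal, and tissue, table and cell classes within the gates cannot be told apart.

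Cells sorted as GFP+ endothelial cells from blood, of which 7 passed the filter, were outside all comparisons and held reads of 3 of the 10 genes above the floor of 0.607 CPM that a count of 0 allows. Eng had 36.6 CPM, with 98.9% of its reads in 1 cell. Id3 had 51.8 CPM from 2 cells. Smad7 had 55.8 CPM, all from 1 cell. All 4 haematopoietic markers and 3 of 4 B cell markers were found in at least 30% of these cells, against 1 of 8 pan-endothelial markers, which goes against their label as endothelial cells.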

How the results depend on the processing

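In lymph node GFP+ over GFP- cells, each of the 8 genes past 2-fold had a value under 16 alternatives. Of these values 4 were at 0 or turned direction and 13 in all were no longer past 2-fold in the same direction. For GFPlow over GFP- cells 72 values of 6 genes held 3 and 5 such values, and for GFPlow over GFP+ cells 24 values of 2 genes held 1 and 2. Bmpr2 turned direction in GFP+ over GFP- cells in pool B alone (0.0702). The number of genes lower there was 3 without blood-like cells, and the number higher was 0 with the stricter cell filter, without the cell with the most reads, in pool A alone and without pool C. In GFPlow over GFP- cells the number higher was 1 with the mean of per-cell CPM, thinned cells, the top cell left out, pool C alone or no blood-like cells, and 2 in pool B alone. In GFPlow over GFP+ cells the number higher was 1 with thinned cells, the top cell left out or pool C alone, and the number lower was 1 with the top cell left out and 2 in pool B alone. In tumour, 1 gene was lower by the mean of per-cell CPM (Acvrl1, -1.01) and on plate KM3 alone (Bmp4, -1.04), and 1 was higher with no filter on low values (Bmp6, with 99.4% of its GFP+ reads in 1 cell). Shares over all genes were computed for the main setting only, so the counts under alternatives have no such share beside them. The causes were not tested. No paired analysis was possible because no test was run: the labels name no animal, and values within pools stand in its place. Pool values without the cell with the most reads stand beside some of the results they move, an alternative chosen after the data had been seen.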

Other observations

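Tumour macrophages (81 cells, CD45+ CD31- GFP-) set another pattern of the same 10 genes. Id2 had 442 CPM and reads in 82.7% of cells, while Id1 had 7.17 CPM and Id3 9.57 CPM, from 9.88% and 4.94% of cells. Acvrl1 had 67.7 CPM, Eng 41.6 CPM and Bmpr2 29.9 CPM. Bmp4, Bmp6 and Bmp2 had 0 reads, which allows a share of up to 3.70% of cells each.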
